A study of Mus musculus with 5 samples.

Results

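The genes described here were 7 chemokine receptors of lymphocytes, Ccr2, Ccr4, Ccr8, Ccr10, Cxcr3, Cxcr4 and Cx3cr1. They were chosen by name, and all 7 were among the 31253 genes counted. Male mice aged 8 to 10 weeks had the left ureter tied and cut, called unilateral ureteral obstruction (UUO), or a sham operation without the tie. Sorted cells were sequenced singly on the BD Rhapsody system. The labels give innate lymphoid cells (ILCs) for the kidney and group 3 ILCs (ILC3s) for the small intestine. The groups were wild-type kidney 14 days after UUO, kidney of the PD-1 knockout strain B6.Cg-Pdcd1tm1.1Shr/J 3 days after UUO, wild-type intestine after sham surgery and wild-type intestine 3 days after UUO. Counts of wild-type kidney 3 days after UUO were not analysed here. Each group was 1 library, with the number of mice not given in the sources used here, so no difference was tested. The kidney libraries differed in strain and in day, and these cannot be told apart. Pdcd1, the gene of PD-1, was counted in the library labelled PD-1 knockout at 189.6 CPM (UMI counts of a gene scaled to 1000000 UMIs) and in wild-type kidney at 127 CPM. These counts check neither the strain nor its label, because the labels do not say which part of the gene is deleted.

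Chemokine receptors are G protein-coupled receptors that steer cells along gradients of small secreted proteins, the chemokines. CCR2 binds CCL2, CCL7 and CCL12 and draws monocytes and activated lymphocytes into inflamed tissue. CXCR3 binds the interferon-induced CXCL9 and CXCL10, and CX3CR1 binds CX3CL1 and is known from monocytes, macrophages and cytotoxic effector lymphocytes. CCR4, the receptor of CCL17 and CCL22, and CCR8, the receptor of CCL1, are known from type 2 helper and regulatory T cells. CCR10 binds CCL27 and CCL28, which epithelia make. CXCR4 binds CXCL12 and is carried by most leukocytes.

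In the GENCODE M21 annotation (GRCm38, the build called mm10 in the submitters' processing notes) the genes were Ccr2 on chromosome 9, 124101950 to 124113557, plus strand, Ccr4 on chromosome 9, 114490316 to 114504916, minus strand, Ccr8 on chromosome 9, 120092114 to 120094906, plus strand and Cx3cr1 on chromosome 9, 119901616 to 120069879, minus strand. The others were Ccr10 on chromosome 11, 101172997 to 101175443, minus strand, Cxcr3 on chromosome X, 101731535 to 101734269, minus strand, and Cxcr4 on chromosome 1, 128588199 to 128592293, minus strand. Ccr10 overlapped Cntnap1 on the opposite strand, and the span given for Cx3cr1 overlapped 9 other genes. Whether counting used the strand was not given in the sources used here, so reads of these overlaps could not be assigned for sure. Of the stretches of 50 bases in Ccr2 transcripts, 1.91% were also found in other genes. For Ccr4 and Cx3cr1 the shares were 0.465% and 0.270%, and for the other 4 genes they were 0.

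The stretches just before Ccr8 and Cxcr3 are shown because these 2 receptors divided the kidney ILC2s from the other innate cells in the values that follow, Ccr8 being high in ILC2s and Cxcr3 near the level of B cells. They are from RefSeq (GRCm38.p6), chr9:120091883-120092113 on the plus strand and chrX:101734270-101734397 on the minus strand, 5′ to 3′ in the direction of the gene. Capitals mark the only match to the letters AGATAA or TGATAA, searched on both strands, which the GATA factors are known to bind.
Ccr8: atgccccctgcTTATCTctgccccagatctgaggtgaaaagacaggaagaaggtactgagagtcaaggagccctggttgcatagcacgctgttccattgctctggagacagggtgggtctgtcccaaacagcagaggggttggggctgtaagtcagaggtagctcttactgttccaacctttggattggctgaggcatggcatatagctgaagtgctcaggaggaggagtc
Cxcr3: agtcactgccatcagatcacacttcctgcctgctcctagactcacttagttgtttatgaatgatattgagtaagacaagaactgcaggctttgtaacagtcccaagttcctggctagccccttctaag
The match in Ccr8 began 220 bases before the first base of the annotated gene and lay on the opposite strand. In windows of 250 bases before to 50 after the start, 18.6% of 32851 promoters held such a match, among them those of Ccr8 and Ccr2. Those of Ccr4, Cxcr3, Cxcr4 and Cx3cr1 held none. The letters AGGTGT (T-box factors, both strands, in 13.7% of promoters) were in none of these 6 windows. A match is a description of the letters and not a binding site.

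The 4 libraries held 3621 to 7007 barcodes and 8717372 to 16466027 unique molecular identifiers (UMIs), with medians of 1824 to 2177 UMIs per kept cell. The intestinal libraries shared 158 barcodes, and every other pair of libraries that could be compared shared 22 to 27. Cells were put in classes by marker genes that included no chemokine receptor. Wild-type kidney comes first in pairs of values and the library labelled PD-1 knockout second. There were 2583 and 3324 T cells, 243 and 298 natural killer (NK) cells, 553 and 819 ILC1s, 467 and 656 ILC2s and 78 and 54 cells in the ILC3 gate. Sham and UUO intestine held 2856 and 3714 ILC3s and 74 and 79 ILC1s. Genes not used in the gates matched most of the names, though T cell receptor genes were also counted in ILC1s and ILC2s. NK cells had Gzma, a granzyme of killer cells, at 3292 and 3039 CPM against 156 and 60.1 CPM in ILC1s. ILC2s had Gata3, their defining transcription factor, at 1719.5 and 1333 CPM. The kidney ILC3 gate did not match its name: Trac, a T cell receptor gene, stood at 683 and 412 CPM, and Kit at 174 and 232 CPM against 1416 and 1459 CPM in intestinal ILC3s. Its values are given as those of the gate. T cell transcripts were also counted in the B cells of both kidney libraries, where Cd3e stood at 32.6 and 91.8 CPM. In ILC1s with and without a Ccr2 UMI, Trac, Trbc1 and Trbc2 summed to 1462 and 1628 CPM in wild-type kidney. In the other library they summed to 1734 and 1676 CPM. ILC2s split in this way held 682 and 573 CPM, and 846 and 846 CPM. CD8 T cells without a Cx3cr1 UMI held 4888 and 5394 CPM. What T cells added to the innate classes was not tested.

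Levels are CPM of the summed UMIs of a class, ranges in brackets are exact 95% intervals that cover counting error only, and pairs of values give wild-type kidney at day 14 first and the library labelled PD-1 knockout at day 3 second. Shares of cells with a UMI are given as counted and after thinning each cell to 1000 UMIs. Kidney B cells served as the measure of background for the receptors other than Cxcr4 and Cxcr3, which B cells can express themselves. Kidney epithelial cells, 10 and 0 in number, were too few to take their place. For Cxcr3 the B cells are given as a comparison only.

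**Figure D1:**
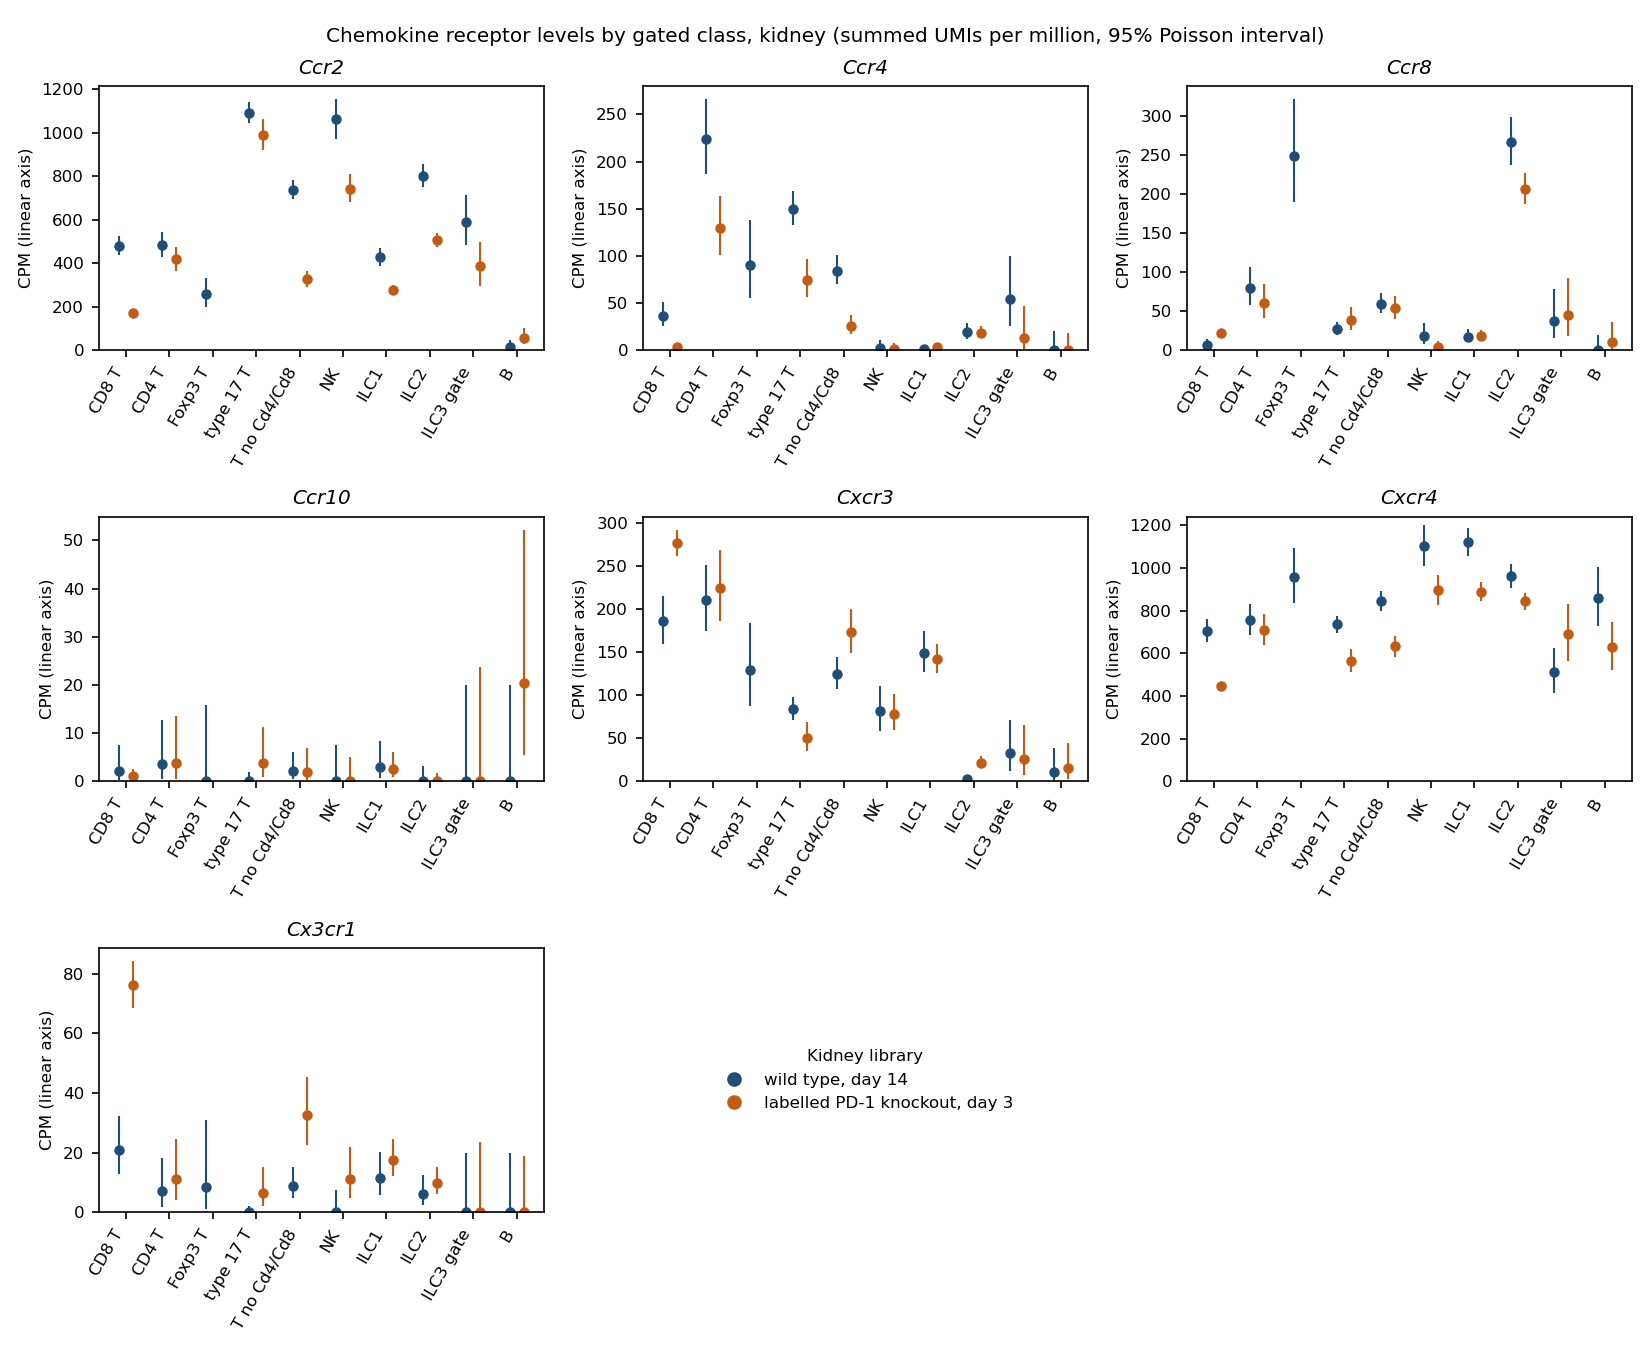
CPM of the 7 receptors (vertical axis, linear, from 0) in gated kidney classes (horizontal axis); points are 1 library each and bars are exact Poisson 95% intervals. Classes with fewer than 50 cells in a library are left out. Ccr2 was highest in type 17 T cells and NK cells, Ccr8 in ILC2s and Foxp3 T cells, and Cxcr4 was at or above 447 CPM in all classes shown.

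Ccr2 was a receptor of most kidney classes, and its level divided the type 1 cells. In NK cells it stood at 1061 (972 to 1156) and 743 (681 to 808) CPM, and in ILC1s at 428 (389 to 469.8) and 275 (252 to 299) CPM. NK cells were above ILC1s in both libraries, with intervals that did not overlap. ILC2s held 802 (751 to 855) and 505 (474 to 537) CPM. Among T cells the highest level was in type 17 T cells, those with at least 2 genes of the ILC3 panel such as Il23r and Il17f, at 1092 (1045 to 1141) and 989.7 (921 to 1062) CPM. CD4 T cells held 482 (427 to 543) and 418 (365 to 477) CPM, CD8 T cells 479.5 (437 to 526) and 169.8 (158 to 182) CPM, and T cells without Cd4 and Cd8 737 (694 to 783) and 327 (293 to 363) CPM. Type 17 T and NK cells did not differ beyond counting error in wild-type kidney, whereas in the library labelled PD-1 knockout type 17 T cells were higher. B cells held 16.3 (3.36 to 47.6) and 56.1 (28.0 to 100.4) CPM, and 10 of the 11 UMIs of the second value came from 1 cell.

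The share of cells with a Ccr2 UMI followed the same order. It was 77.3% and 81.3% of type 17 T cells, 67.5% and 64.4% of NK cells, 64.9% and 52.1% of ILC2s and 36.5% and 28.8% of ILC1s. After thinning the shares were 55.4% (51.9 to 58.9%) and 58.8% (52.2 to 65.0%), 51.7% (45.1 to 58.4%) and 44.0% (38.3 to 49.9%), 43.6% (39.0 to 48.2%) and 29.7% (26.2 to 33.4%), and 26.5% (22.8 to 30.4%) and 18.4% (15.8 to 21.3%). B cells with a Ccr2 UMI were 3.23% and 2.33%, at median depths of 1378 and 1681 UMIs against 1842 and 2240.5 in NK cells. Every class named here was above B cells. Thinning left out 10 and 1 type 17 T cells, 13 and 5 NK cells, 8 and 20 ILC2s and 24 and 22 ILC1s.

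Cxcr3 was a receptor of T cells and type 1 cells. CD8 T cells held 186 (159 to 215) and 277 (262 to 292) CPM, and CD4 T cells 210.2 (174 to 251) and 225 (186 to 269) CPM. ILC1s held 149 (127 to 175) and 142 (126 to 159.7) CPM and NK cells 81.6 (58.3 to 111) and 78.2 (59.0 to 101) CPM. ILC1s were thus above NK cells, the reverse of their order for Ccr2. Type 17 T cells were lower than the other T cells of more than 50 cells in both libraries, at 83.8 (71.2 to 97.9) and 50.3 (35.8 to 68.8) CPM. Thinned shares were 17.5% (14.3 to 21.2%) and 22.8% (21.1 to 24.7%) of CD8 T cells, 14.6% (11.7 to 17.9%) and 14.1% (11.7 to 16.7%) of ILC1s and 4.78% (2.41 to 8.40%) and 8.19% (5.32 to 11.9%) of NK cells, beside 1.30% (0.0329 to 7.02%) and 0% (0 to 4.45%) of B cells. Unthinned they were 24.7% and 37.4%, 22.4% and 24.8%, and 12.3% and 15.4%, and B cells held 2.15% and 3.49%. In the wild-type library ILC1s and CD8 T cells did not differ beyond their intervals in thinned share.

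ILC2s had little Cxcr3. They held 3 UMIs in 467 cells of wild-type kidney, or 2.60 (0.536 to 7.60) CPM, and 44 UMIs in 656 cells of the library labelled PD-1 knockout, or 21.7 (15.8 to 29.1) CPM. B cells held 10.9 (1.31 to 39.2) and 15.3 (3.16 to 44.7) CPM, so neither value stood above that of B cells. As B cells can express Cxcr3, this does not place the ILC2 values at background.

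Cx3cr1 was sparse and lay mainly in CD8 T cells of the library labelled PD-1 knockout. CD8 T cells held 20.98 (12.8 to 32.4) CPM in wild-type kidney and 76.1 (68.4 to 84.4) CPM in the knockout-labelled library, with a UMI in 2.89% and 10.2% of cells, or 1.63% (0.706 to 3.19%) and 6.53% (5.53 to 7.66%) after thinning. T cells without Cd4 and Cd8 held 8.93 (4.76 to 15.3) and 32.6 (22.5 to 45.5) CPM. NK cells held 0 and 8 UMIs, ILC1s 11.5 (5.94 to 20.1) and 17.6 (12.2 to 24.6) CPM and ILC2s 6.07 (2.44 to 12.5) and 9.87 (6.03 to 15.2) CPM. The 0 UMIs in wild-type NK cells allow up to 6.12 CPM, and the 0 UMIs in wild-type type 17 T cells up to 1.601 CPM. B cells had none in 93 and 86 cells, which allows a share of cells with a UMI, at the depth of these cells, of up to 3.23% and 3.49%. Myeloid cells, which are known to carry this receptor, held 144 (66.0 to 274) and 362 (263 to 486) CPM in 15 and 27 cells.

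Markers of myeloid cells were counted in CD8 T cells with and without a Cx3cr1 UMI. The 6 genes of the myeloid panel, Lyz2, C1qa, C1qb, Csf1r, Cd14 and Adgre1, summed to 14.5 against 12.1 CPM in cells with and without a Cx3cr1 UMI of the library labelled PD-1 knockout, and Cd8a stood at 1063 against 1109.5 CPM. Wild-type kidney had 15 such cells, too few for these markers. The same panel had been used to leave out T cells with myeloid markers, and Cd8a was among the genes that split the T cells. The gates thus limited these values beforehand, so they cannot decide whether myeloid transcripts were mixed in. What such transcripts added to Cx3cr1 in CD8 T cells was not tested.

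Ccr4 was a receptor of T cells. CD4 T cells held the highest level, 224 (187 to 267) and 129 (101 to 164) CPM, followed by type 17 T cells at 149.9 (133 to 169) and 74.8 (56.8 to 96.8) CPM and T cells without Cd4 and Cd8 at 84.5 (70.2 to 101) and 25.9 (17.04 to 37.6) CPM. Foxp3 T cells, the regulatory T cells, held 90.3 (55.9 to 138) CPM in 116 wild-type cells, which did not differ from the T cells without Cd4 and Cd8 beyond counting error. CD8 T cells held 36.7 (25.6 to 51.1) and 3.19 (1.78 to 5.26) CPM. NK cells and ILC1s had 1 and 1, and 1 and 6 UMIs. Kidney ILC2s held 19.1 (11.9 to 28.9) and 18.8 (13.3 to 25.7) CPM. The share of CD4 T cells with a Ccr4 UMI was 28.5% and 19.7%, or 16.3% (12.2 to 21.1%) and 10.9% (7.19 to 15.7%) after thinning, and no B cell of 93 and 86 had one, which allows up to 3.23% and 3.49% of cells with a UMI. The 22 ILC2s of UUO intestine, too few for a comparison, held 45 UMIs, or 597 (435 to 799) CPM, with a UMI in 68.2% of cells.

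Ccr8 marked ILC2s and Foxp3 T cells. ILC2s held 267 (238 to 298) and 207 (187 to 228) CPM, and wild-type Foxp3 T cells 249 (189 to 322) CPM, so that the 2 classes did not differ beyond counting error in wild-type kidney. The library labelled PD-1 knockout had 18 Foxp3 T cells with 3 Ccr8 UMIs. CD4 T cells held 79.5 (58.0 to 106) and 59.97 (41.0 to 84.7) CPM, T cells without Cd4 and Cd8 59.8 (47.9 to 73.7) and 53.6 (40.5 to 69.6) CPM, and type 17 T cells 27.2 (20.3 to 35.8) and 38.7 (26.1 to 55.3) CPM. NK cells and ILC1s were at 18.4 and 4.19 CPM and at 17.2 and 18.6 CPM. A Ccr8 UMI was found in 39.4% and 37.3% of ILC2s, or 20.5% (16.9 to 24.5%) and 17.1% (14.3 to 20.3%) after thinning. In wild-type Foxp3 T cells the share was 34.5%, or 26.5% (18.7 to 35.7%). B cells held 0% and 2.33%, where 0 of 93 allows up to 3.23% of cells with a UMI. CD8 T cells stood at 7.34 (2.95 to 15.1) and 21.9 (17.9 to 26.6) CPM. Their thinned shares, 0.407% (0.0494 to 1.46%) and 2.18% (1.605 to 2.89%), did not stand above the 1.23% (0.0312 to 6.69%) of B cells in the library labelled PD-1 knockout. The interval of B cells was wide, so this does not decide whether the shares were above background.

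Ccr10 was near the limit of detection everywhere. T cells held 7 and 12 UMIs, or 1.36 (0.547 to 2.81) and 1.61 (0.831 to 2.81) CPM, and ILC1s 3 and 5 UMIs. No UMI was counted in NK cells, ILC2s or the ILC3 gate of either kidney library, which allows up to 2.60 and 1.48 CPM in ILC2s and up to 6.12 and 4.19 CPM in NK cells. None was counted in intestinal ILC3s, with limits of 0.488 and 0.356 CPM. B cells of the library labelled PD-1 knockout held 4 UMIs, all in 1 cell.

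Cxcr4 was high in all lymphocytes. ILC1s and NK cells stood at the top in wild-type kidney. The levels were 1121 (1057 to 1187) CPM in ILC1s, 1102 (1011 to 1199) CPM in NK cells and 962 (906 to 1020.3) CPM in ILC2s. In the library labelled PD-1 knockout they held 888 (847 to 932), 896 (828 to 968) and 843 (804 to 884) CPM. These 3 classes did not differ beyond counting error in the library labelled PD-1 knockout, and in wild-type kidney only ILC2s lay below ILC1s. CD8 T cells held 706 (654 to 762) and 447 (428 to 466) CPM, CD4 T cells 756 (686 to 831) and 710.3 (641 to 786) CPM and type 17 T cells 735 (696 to 775) and 565 (513 to 621) CPM. B cells held 857 (729 to 1002) and 627 (521 to 748) CPM, as cells that carry the receptor themselves, and no kidney class of at least 50 cells could serve as a background for it. A UMI was found in 80.3% and 76.9% of ILC1s and in 62.4% and 51.0% of CD8 T cells, or in 58.8% (54.5 to 63.0%) and 53.6% (50.04 to 57.1%) and in 43.4% (38.9 to 47.9%) and 32.3% (30.4 to 34.4%) after thinning.

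The kidney ILC3 gate held Ccr2 at 591 (485 to 713) and 386 (294 to 497) CPM and Cxcr4 at 509.9 (412 to 624) and 688 (564 to 832) CPM. Its other receptors had at most 10 UMIs each. Of its 78 and 54 cells, 47 and 31 held 1 UMI of a CD3 gene. What T cells in the gate added to these levels was not tested.

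**Figure D2:**
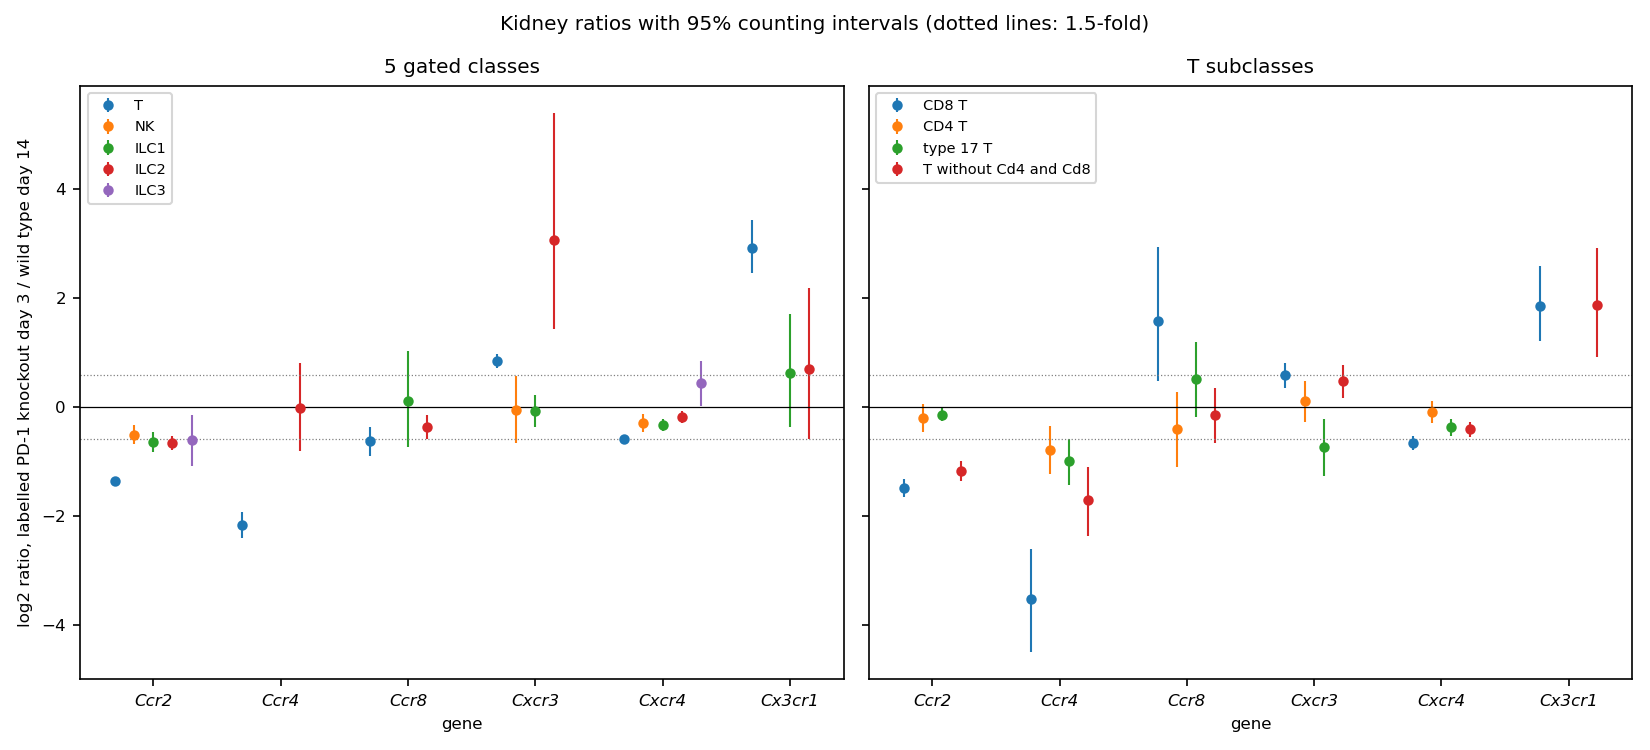
Log2 ratio of CPM, the library labelled PD-1 knockout at day 3 over wild-type kidney at day 14 (vertical axis), for 6 receptors (horizontal axis) in 5 gated classes and in 4 T cell subclasses; bars are 95% counting intervals and dotted lines mark 1.5-fold. Ratios of Ccr2 were below 0 in all 5 classes, and Cx3cr1 in T cells was the highest ratio of that class at 2.92.

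The kidney libraries were compared class by class. A receptor counted as different where the libraries differed at least 1.5-fold with a 95% counting interval of the log2 ratio without 0, among receptors with 20 or more UMIs over the 2 libraries. Over the 5 classes 22 of 35 receptor and class pairs had that many UMIs, of which 3 were higher and 7 lower in the library labelled PD-1 knockout and 12 were neither. All 6 measured receptors of T cells passed, 2 higher and 4 lower, where 7.7% of all 10874 genes measured in T cells were higher and 10.4% lower. Ccr4 had a log2 ratio of -2.17 (-2.42 to -1.94), Ccr2 of -1.36 (-1.43 to -1.28), Ccr8 of -0.63 (-0.90 to -0.37) and Cxcr4 of -0.60 (-0.66 to -0.53). Cx3cr1 and Cxcr3 had ratios of 2.92 (2.45 to 3.43) and 0.83 (0.70 to 0.96).

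The T cells of the 2 libraries were not the same mix. CD8 T cells made up 20.1% of T cells in wild-type kidney and 66.5% in the library labelled PD-1 knockout, and type 17 T cells 32.2% and 7.25%. With 4 subclasses of at least 50 cells given equal weight in both libraries, the ratio of Ccr2 came to -0.55 from -1.36, that of Ccr4 to -1.09 and that of Cx3cr1 to 1.77. Cxcr3 came to 0.26, Cxcr4 to -0.37 and Ccr8 to 0.0033. With the wild-type mix they were -0.50 for Ccr2, -1.16 for Ccr4, 1.90 for Cx3cr1, 0.22 for Cxcr3, -0.40 for Cxcr4 and 0.11 for Ccr8. At equal mix, Ccr4 and Cx3cr1 stayed more than 1.5-fold apart, while Ccr2, Cxcr3, Cxcr4 and Ccr8 did not. The weighting left out the 116 and 18 Foxp3 T cells and the T cells of no subclass, and it was chosen after the data were seen. Wild-type Ccr8 was 39.2 CPM at the wild-type mix of the 4 subclasses, against 48.8 CPM in all wild-type T cells.

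**Figure D3:**
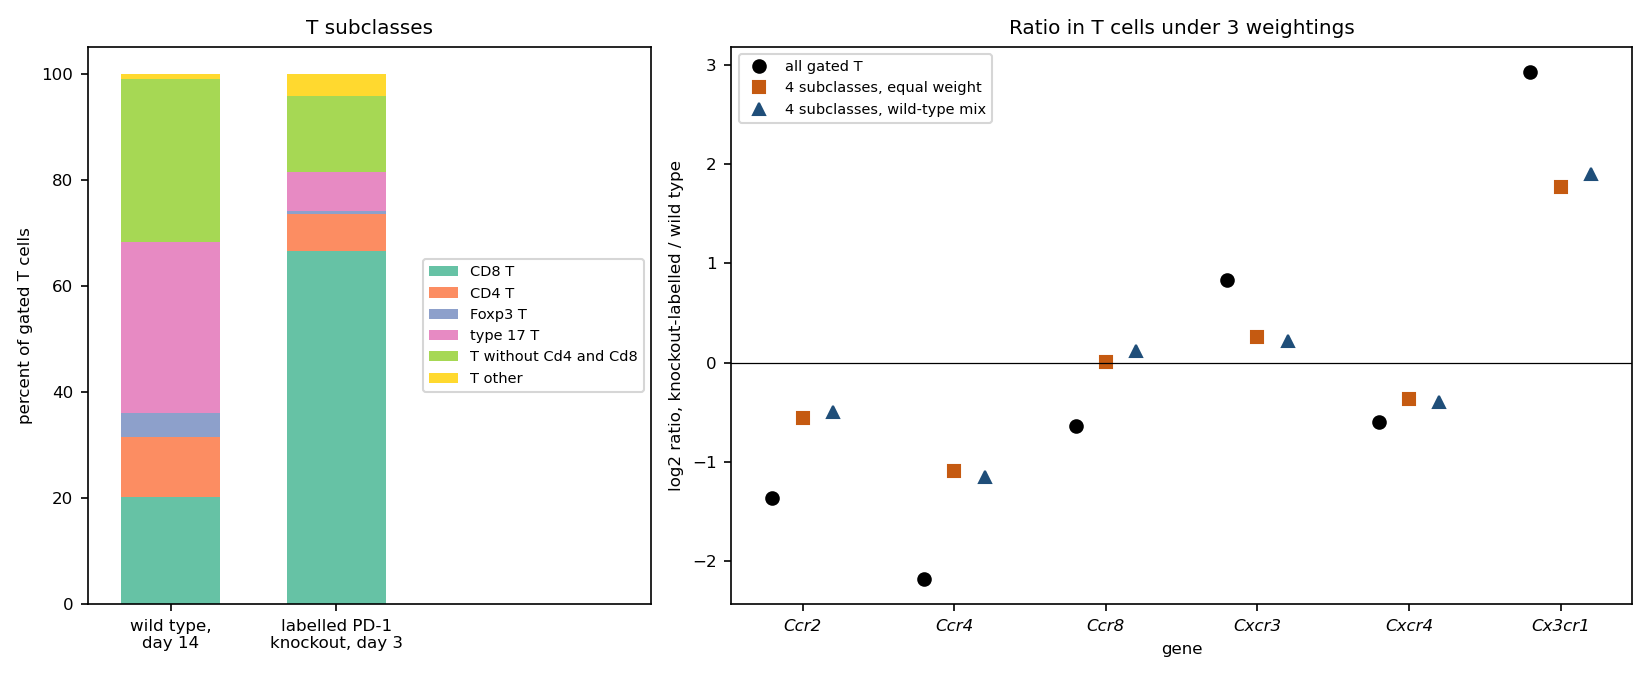
Left, percent of gated kidney T cells in each subclass (bars stacked to 100%) per library. Right, log2 ratio of CPM of 6 receptors in T cells as counted and with the 4 larger subclasses weighted equally or by their wild-type shares; points carry no error bar. The Ccr8 ratio moved from -0.63 to 0.0033 at equal weight, and that of Cx3cr1 from 2.92 to 1.77.

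Within the subclasses, a comparison added after the data were seen, 22 of 28 pairs had enough UMIs, and 3 were higher, 8 lower and 11 neither. CD8 T cells carried 5 of these 11 differences, 2 higher and 3 lower, where 4.97% of 9532 genes were higher and 5.47% lower. Ccr4 had a ratio of -3.53 (-4.50 to -2.62), Ccr2 of -1.50 (-1.66 to -1.33) and Cxcr4 of -0.66 (-0.79 to -0.53). Cx3cr1 had a ratio of 1.86 (1.21 to 2.59). Ccr8 had a ratio of 1.58 (0.48 to 2.93) on 7 and 103 UMIs, with thinned shares that overlapped the wide interval of B cells. Cxcr3 was just under 1.5-fold at 0.58 (0.35 to 0.81). T cells without Cd4 and Cd8 had Cx3cr1 higher at 1.87 (0.91 to 2.91) (5.81% of 8440 genes higher) and Ccr4 and Ccr2 lower at -1.71 (-2.37 to -1.10) and -1.18 (-1.36 to -0.998) (8.26% lower).

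Type 17 T cells and CD4 T cells held Ccr2 within 1.5-fold in the 2 libraries. The ratio was -0.14 (-0.26 to -0.02) in type 17 T cells and -0.21 (-0.47 to 0.05) in CD4 T cells. Type 17 T cells had Ccr4 and Cxcr3 lower, at -1.002 (-1.44 to -0.59) and -0.74 (-1.28 to -0.22), where 6.84% of 8547 genes were lower and 4.86% higher. CD4 T cells had Ccr4 lower at -0.79 (-1.24 to -0.36) and the other 4 measured receptors neither higher nor lower, where 6.53% of 6458 genes were lower and 4.13% higher. Ccr4 was the receptor that was lower in all 4 subclasses.

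Each innate class differed in fewer receptors than all T cells or CD8 T cells, but not than every T subclass. ILC1s had 1 lower of 5 measured and ILC2s 1 higher and 1 lower of 6. CD4 T cells had 1 lower of 5 and type 17 T cells 2 lower of 5. Ccr2 was lower in ILC1s at -0.64 (-0.82 to -0.45) and in ILC2s at -0.67 (-0.80 to -0.54), each only just past 1.5-fold. Of the ILC1s, 82 of 553 and 249 of 819 held 1 CD3 UMI. Without these cells the ILC1 ratio was -0.85 (-1.07 to -0.64). The ILC2 ratio was -0.83 without the 5% of cells with most UMIs. Other alternatives lay within the intervals. The background was 5.61% of 8593 genes lower and 4.29% higher in ILC1s, and 3.72% of 8717 lower and 6.14% higher in ILC2s. In NK cells none of 3 measured receptors passed, where 4.15% of 6655 genes were lower and 4.13% higher. Their ratios were -0.52 (-0.69 to -0.34) for Ccr2, -0.30 (-0.47 to -0.13) for Cxcr4 and -0.06 (-0.67 to 0.56) for Cxcr3. The ILC3 gate had Ccr2 at -0.62 (-1.09 to -0.15) and Cxcr4 at 0.43 (0.02 to 0.85), of which the first passed, with 7.06% of 3370 genes lower and 7.33% higher. Cxcr3 in ILC1s, at -0.07 (-0.36 to 0.22), and Ccr8 in ILC2s, at -0.37 (-0.58 to -0.15), did not pass. Whether the difference in Ccr2 was unequal between classes was not tested.

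Cxcr3 in ILC2s had the highest ratio of the innate classes, 3.06 (1.42 to 5.39), on 3 and 44 UMIs. It was 1.33 with classes taken from clusters and 4.32 without the 5% of cells with most UMIs. T cell transcripts were also more frequent in the library labelled PD-1 knockout. A single CD3 UMI was found in 63 of 467 and 219 of 656 ILC2s, and Cd8a stood at 1.73 and 35.0 CPM in them. B cells held Trac at 38.0 and 184 CPM. In ILC2s without any CD3 UMI, Cxcr3 stood at 2.01 (0.244 to 7.27) CPM on 2 UMIs and 20.5 (13.4 to 30.1) CPM on 26 UMIs. The part of these transcripts in the ratio was not tested.

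Cxcr4 was lower by less than 1.5-fold in NK cells, ILC1s and ILC2s, and past it in CD8 T cells. A list of 8 genes of stress and of glucocorticoid signalling was counted in the same classes. In T cells 3 of the 8 were lower and none higher, where 10.4% of all genes were lower. In ILC1s 2 were lower (5.61% of all genes) and in ILC2s 3 were lower (3.72%), with none higher in either, and in NK cells none was lower or higher. In CD8 T cells none was lower and 2 were higher (4.97% of all genes). These were Fkbp5 at 71.2 against 30.4 CPM (log2 ratio 1.23, 0.68 to 1.83) and Hif1a at 289.96 against 189.9 CPM (log2 ratio 0.61, 0.39 to 0.84), first in the library labelled PD-1 knockout. The medians of the 8 log2 ratios were -0.24 in T cells, -0.13 in ILC1s and -0.26 in ILC2s, but 0.28 in NK cells and 0.33 in CD8 T cells, beside -0.04, -0.04, 0.03, -0.02 and -0.01 over all genes. In CD4 T cells, with Cxcr4 at -0.09, 4 were lower (6.53% of all genes) and none higher. Type 17 T cells had 2 lower (6.84%) and none higher, and T cells without Cd4 and Cd8 had 2 lower (8.26%) and 1 higher (5.81%). The heat shock gene Hspa1b had log2 ratios of -3.24 in T cells, -4.02 in ILC1s and -3.15 in ILC2s, and of 0.45 in NK cells and 0.46 in CD8 T cells. In the other T subclasses it was -6.18 in CD4 T cells, on 1 and 77 UMIs, -3.49 in type 17 T cells and -4.20 in T cells without Cd4 and Cd8. Of the genes of glucocorticoid signalling, Tsc22d3 was lower in ILC2s at -1.30, while in T cells the log2 ratios were 0.06 for Tsc22d3, 0.34 for Fkbp5 and -0.02 for Nr3c1. Their part in the Cxcr4 values was not tested.

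The ligands of these receptors were counted in the same cells. Ccl1, the ligand of CCR8, was highest in ILC2s, the class with the most Ccr8, at 819 (768 to 873) CPM in wild-type kidney and 621 (587 to 656) CPM in the knockout-labelled library. It was higher in the latter in NK cells, at 259.6 against 18.4 CPM (log2 ratio 3.82, 2.87 to 4.97), in ILC1s, at 176 against 60.3 CPM (log2 ratio 1.54, 1.15 to 1.95), and in T cells, at 63.2 against 18.9 CPM (log2 ratio 1.75, 1.43 to 2.08). Cxcl10, a ligand of CXCR3, was at 60.02 against 12.2 CPM (log2 ratio 2.29, 1.05 to 3.82) in NK cells and 54.9 against 26.8 CPM (log2 ratio 1.03, 0.42 to 1.69) in ILC1s. Cx3cl1 in ILC1s was at 20.2 against 2.87 CPM (log2 ratio 2.81, 1.16 to 5.15), and Cxcl9 in ILC2s at 17.8 against 0.867 CPM (log2 ratio 4.36, 1.79 to 9.70), the lower value resting on 1 UMI. Of 14 ligands, 3 had 20 UMIs in T cells, 3 in ILC1s, 2 in NK cells and 4 in ILC2s, of which 1, 3, 2 and 1 were higher and none lower, in that order. Over all genes 7.7%, 4.29%, 4.13% and 6.14% were higher. Within T cells Ccl1 was lower in CD4 T cells at 20.6 against 47.7 CPM (log2 ratio -1.21, -2.37 to -0.15) and higher in the other 3 subclasses, with log2 ratios of 1.35 in CD8 T cells, 2.83 in type 17 T cells and 3.34 in T cells without Cd4 and Cd8. Their medians were 1.54 in ILC1s and 0.08 in ILC2s, beside -0.04 and 0.03 over all genes. The ligands of CCR4 lay in myeloid cells of wild-type kidney: Ccl22 stood at 3722 (3258 to 4233) CPM and Ccl17 at 914 (693 to 1185) CPM in 15 cells. In the 27 myeloid cells of the library labelled PD-1 knockout they held 0 UMIs, which allows up to 24.7 CPM, and 49.4 (18.1 to 107) CPM. Ccl2, a ligand of CCR2, stood at 337 (209 to 515) and 518 (398 to 663) CPM there.

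Other chemokine receptors differed mostly in T cells, where 3 of 10 measured genes of 16 were higher and 4 lower (7.7% and 10.4% of all genes), with a median log2 ratio of -0.33 beside -0.04 over all genes. The log2 ratios farthest from 0 were those of Cxcr5, at 3.61 on 53 against 3 UMIs, Ccr3, at -3.48 on 9 against 69 UMIs, and Ccr1, at -2.35 on 8 against 28 UMIs. The lymph node homing receptor Ccr7 was at 42.1 against 24.7 CPM (log2 ratio 0.77, 0.47 to 1.08). Ccr6, known from type 17 cells, was at 30.1 against 103 CPM (log2 ratio -1.77, -2.01 to -1.55), and Cxcr6 at 332 against 632 CPM (log2 ratio -0.93, -1.01 to -0.85). These values of all T cells hold the different mix of subclasses. Ccr6 was lower in CD8 T cells, at -2.51, and in T cells without Cd4 and Cd8, at -0.65, and not past 1.5-fold in type 17 T cells, at -0.24, and CD4 T cells, at -0.40. Cxcr6 was lower in T cells without Cd4 and Cd8 alone, at -0.97, with -0.40 in CD8 T cells, -0.50 in CD4 T cells and -0.29 in type 17 T cells. Ccr7 was higher in T cells without Cd4 and Cd8 alone, at 1.59. It was at -0.02 in CD8 T cells, -0.05 in CD4 T cells and 1.08 (-0.06 to 2.21) in type 17 T cells. In ILC1s none of 6 passed. In ILC2s 1 of 6 passed, Ccrl2, a receptor that does not signal, at 153 against 242 CPM (log2 ratio -0.66, -0.90 to -0.42). Of 18 genes of receptor signalling, 17 were measured in T cells, ILC1s and ILC2s, and the numbers higher and lower were 1 and 3, 0 and 1, and 0 and 1, near the shares over all genes of 7.7% and 10.4%, 4.29% and 5.61%, and 6.14% and 3.72%. In T cells Rgs16 and Rgs1, which shorten receptor signals, were at 152 against 91.2 CPM (log2 ratio 0.74, 0.58 to 0.90) and 1108 against 1783 CPM (log2 ratio -0.69, -0.73 to -0.64). The arrestin gene Arrb1 was at 26.8 against 77.6 CPM (log2 ratio -1.53, -1.79 to -1.29). For CD8, CD4, type 17 T cells and T cells without Cd4 and Cd8, in that order, Rgs16 was at 1.94, 0.03, -0.11 and 0.35. In the same order Rgs1 was at -0.74, -0.69, -0.52 and -0.63, and Arrb1 at -1.03, -0.81, -0.30 and -1.21. Of 7 genes of tissue exit and retention, 6 were measured in each of the T, NK, ILC1 and ILC2 classes, where 2, 1, 1 and 3 were higher and 2, 1, 1 and 0 lower. Over all genes 7.7%, 4.13%, 4.29% and 6.14% were higher and 10.4%, 4.15%, 5.61% and 3.72% lower. In ILC2s S1pr1, the exit receptor, was at 27.6 against 9.53 CPM (log2 ratio 1.54, 0.59 to 2.62). In T cells S1pr1 was at 322 against 214 CPM (log2 ratio 0.59, 0.48 to 0.69) and Itgae, an integrin of resident cells, at 53.1 against 139 CPM (log2 ratio -1.39, -1.57 to -1.21). By subclass, S1pr1 was past 1.5-fold in T cells without Cd4 and Cd8 alone, at 0.77, with 0.19 in CD8 T cells, 0.07 in CD4 T cells and 0.10 in type 17 T cells. Itgae was lower in CD8 T cells, at -1.94, and CD4 T cells, at -1.20, with -0.48 in T cells without Cd4 and Cd8 and 0.20 in type 17 T cells.

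Receptors were also read together in single cells thinned to 1000 UMIs, as a description within each library. In wild-type ILC1s Cxcr3 was found in 24.3% (17.4 to 32.2%) of 140 cells with Ccr2 and 11.1% (8.12 to 14.6%) of 389 cells without, and in the knockout-labelled library in 14.97% (9.62 to 21.8%) of 147 and 13.8% (11.3 to 16.7%) of 650. The intervals did not overlap in the first and overlapped in the second. In ILC2s Ccr8 was found in 25.0% (19.2 to 31.6%) of 200 cells with Ccr2 and 16.99% (12.6 to 22.1%) of 259 without in wild-type kidney, and in 20.1% (14.6 to 26.5%) of 189 and 15.9% (12.6 to 19.6%) of 447 in the other library. In CD8 T cells of the library labelled PD-1 knockout Cxcr3 was found in 19.9% (13.6 to 27.4%) of 141 cells with Cx3cr1 and 23.1% (21.2 to 25.0%) of 2017 without. Among wild-type type 17 T cells Ccr2 was found in 53.4% (43.3 to 63.3%) of 103 cells with Ccr4 and 55.7% (52.0 to 59.4%) of 718 without. In these last 3 comparisons the intervals overlapped.

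Over 21 profiles of a class in a library, 17 of them from kidney, the genes most like each receptor were named by Pearson's r of log2(CPM + 10) among 9089 genes. The profiles share libraries and cells of related classes, and r is given for all profiles and then for kidney alone. Ccr8 was most like Nr3c1, the glucocorticoid receptor gene (0.922, 0.883), Gata3 (0.914, 0.892) and Bmp7 (0.884, 0.825). Ccr4 was most like Cd40lg, a helper T cell ligand (0.937, 0.919), Srpk1 (0.885, 0.880) and Crmp1 (0.883, 0.868). Cxcr3 was most like Notch1 (0.898, 0.927), Ptpn22 (0.889, 0.914) and Il16 (0.856, 0.915). Cx3cr1 was most like Gzmk, a granzyme gene (0.851, 0.834), Mef2d (0.821, 0.788) and Celsr1 (0.819, 0.777). The likeness of Ccr2 to Tmsb4x (0.876, 0.329), Erh (0.860, 0.605) and Ttc14 (0.837, 0.302) was lower within kidney, as was that of Cxcr4 to Ctla2a (0.888, 0.641), Ddit4 (0.886, 0.778) and Sc5d (0.860, 0.597). For Ccr10, with 27 UMIs in all, the 3 genes were Zdhhc3, Kbtbd2 and Fbxo32, at 0.739, 0.707 and 0.697.

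Cxcr4 was the receptor with the clearest signal over background in intestinal ILC3s. The level of Cxcr3 stood above background, while the intervals of its share of cells overlapped those of the background. In sham and UUO intestine, in that order, Cxcr4 stood at 369 (354 to 384) and 345 (333 to 358) CPM and Cxcr3 at 58.3 (52.4 to 64.6) and 59.4 (54.3 to 64.8) CPM. Ccr2 stood at 26.9 (22.9 to 31.3) and 19.5 (16.6 to 22.7) CPM, Ccr4 at 2.60 (1.49 to 4.23) and 2.85 (1.83 to 4.24) CPM, and Ccr8 held 2 and 12 and Cx3cr1 0 and 2 UMIs. Epithelial cells, the background there, held Cxcr4 at 90.1 (73.0 to 109.9) and 69.1 (60.7 to 78.4) CPM, Cxcr3 at 15.8 (9.20 to 25.3) and 20.97 (16.5 to 26.3) CPM and Ccr2 at 6.501 and 8.22 CPM. Thinned shares of ILC3s were 23.9% (22.3 to 25.5%) and 23.7% (22.3 to 25.2%) for Cxcr4 and 5.57% (4.74 to 6.49%) and 4.85% (4.16 to 5.61%) for Cxcr3, against 15.8% (10.2 to 23.0%) and 7.73% (5.28 to 10.9%), and 2.16% (0.447 to 6.18%) and 2.58% (1.24 to 4.69%), in epithelial cells. The intervals overlapped in both libraries for Cxcr3 and in sham intestine alone for Cxcr4. Those of epithelial cells were wide, so the overlap does not decide whether the share of Cxcr3 in ILC3s was above background. Unthinned, 36.7% and 38.4% of ILC3s and 38.0% and 32.8% of epithelial cells held a Cxcr4 UMI. Likewise 9.80% and 10.1% of ILC3s and 8.77% and 13.2% of epithelial cells held a Cxcr3 UMI, at median depths of 2040 and 2175 and of 3045 and 3822 UMIs. For Ccr2 the thinned shares, 1.64% (1.20 to 2.18%) and 1.41% (1.04 to 1.85%) in ILC3s, did not stand above the 1.44% (0.175 to 5.10%) and 1.29% (0.420 to 2.98%) of epithelial cells. Its CPM was higher in ILC3s than in epithelial cells in both libraries. The intervals of the epithelial shares were wide and do not decide whether the share of Ccr2 in ILC3s was above background.

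UUO was set against sham surgery in these ILC3s. Of the 7 receptors 4 had at least 20 UMIs, and none passed 1.5-fold, where 4.08% of 11877 genes were higher after UUO and 2.48% lower. The ratios were -0.46 (-0.78 to -0.14) for Ccr2, -0.09 (-0.17 to -0.01) for Cxcr4, 0.03 (-0.17 to 0.23) for Cxcr3 and 0.13 (-0.84 to 1.14) for Ccr4. Without the 54 and 36 ILC3s whose barcode was also in another library they were -0.48, -0.10, 0.04 and 0.12. The intervals of Cxcr4 and Cxcr3 lie within 1.5-fold. Of the other chemokine receptors Ccr9, the gut homing receptor, was at 149 against 92.1 CPM (log2 ratio 0.70, 0.55 to 0.84). None of 5 ligands and none of 17 signalling genes passed.

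ILC1s were found in both organs. For Cxcr3 the 4 libraries gave near values, at 149 (127 to 175) and 142 (126 to 159.7) CPM in kidney and 115 (72.2 to 175) and 106 (66.2 to 159.9) CPM in sham and UUO intestine, with intervals that overlapped. Ccr2 in intestinal ILC1s, at 173 (119 to 243) and 154 (105 to 217) CPM, and Cxcr4, at 372 (291 to 469) and 206 (149 to 278) CPM, lay below both kidney libraries. Between UUO and sham intestine, a comparison of ILC1s added after the data were seen, Cxcr4 was lower, with a log2 ratio of -0.85 (-1.43 to -0.28) on 43 and 71 UMIs, while Ccr2 and Cxcr3 were neither at -0.17 (-0.92 to 0.58) and -0.13 (-1.05 to 0.79), where 4.64% of 3791 genes were lower and 4.14% higher. The intestinal ILC1s numbered 74 and 79 and held a median of 2 genes of the ILC3 panel, against 0 and 1 in kidney, and organ, sort and library cannot be told apart in these values.

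**Figure D4:**
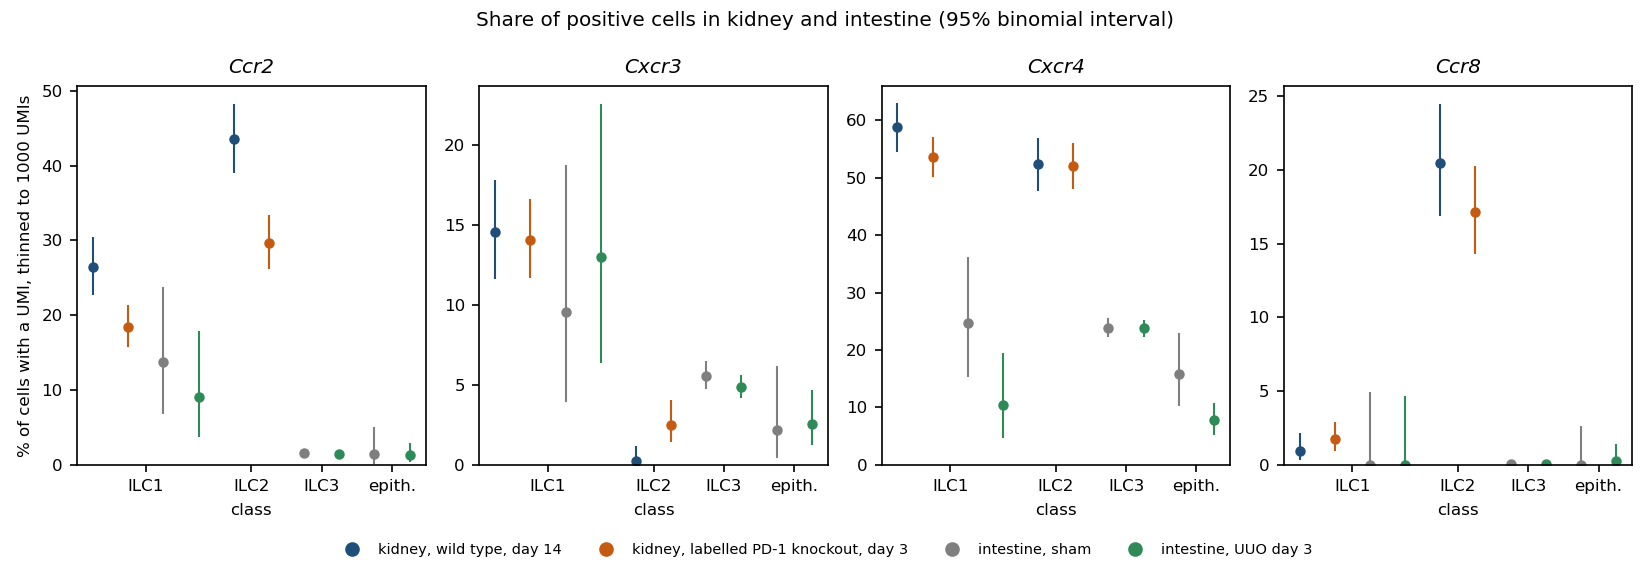
Percent of cells with a UMI after thinning to 1000 UMIs (vertical axis, from 0) of 4 receptors in ILC1s, kidney ILC2s, intestinal ILC3s and intestinal epithelial cells (horizontal axis); each point is 1 library and bars are exact binomial 95% intervals. Ccr8 stands at 20.5% and 17.1% in kidney ILC2s and at most 1.76% in the other classes shown. The intervals of Ccr2 in intestinal ILC3s overlap the wide intervals of epithelial cells.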

How the data were processed

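The deposited values were counts of UMIs per gene and cell, with no normalization by the authors that the values show. Per the submitters' processing notes, CASAVA 1.8, Seurat and UMI-tools were used with mm10. No aligner or annotation was named in the sources used here. Wild-type kidney at day 14 was read with the gene list that the other 3 libraries share, checked by a correlation across genes of 0.992 with the other kidney library, against 0.209 with genes shifted by 1 place. No barcode list of the library labelled PD-1 knockout was used, so its shared barcodes were not counted. Of 31253 gene identifiers 31107 were in GENCODE M21.

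Kept cells had at least 500 UMIs, 250 genes and at most 20% mitochondrial UMIs. T cells had at least 3 UMIs over Cd3d, Cd3e and Cd3g. Innate cells had at most 1 such UMI and at least 2 genes of 1 panel, more than of each other panel: type 1 (Ncr1, Klrb1c, Klrk1, Xcl1, Tbx21, Klre1), ILC2 (Il1rl1, Il5, Il13, Calca, Il17rb, Hs3st1) or ILC3 (Il23r, Il22, Il17f, Il1r1, Tmem176a and 1 gene not reported here). Type 1 cells with Eomes, or with 2 of the NK genes Itga2, Klra4, Klra8, Klra9 and S1pr5, were NK cells, and those without these genes and with Itga1, Tnfsf10, Il7r, Cd200r1 or Inpp4b were ILC1s. Some cells lay at the edge: 482 and 789 kidney cells had 2 CD3 UMIs and were in no T or innate class. Among T cells, type 17 T cells had at least 2 ILC3 panel genes, and the rest were split by Foxp3, Cd4, Cd8a and Cd8b1. B cells had 2 genes of a panel that included Cd79a, Cd79b and Ms4a1, epithelial cells 3 of Epcam, Krt8, Krt18, Krt19, Cdh1 and Cldn7, and myeloid cells 2 of Lyz2, C1qa, C1qb, Csf1r, Cd14 and Adgre1. Doublets were not removed, because Scrublet called at most 6 cells per library. Cells with markers of more than 1 of the T, B, epithelial and myeloid groups were left out.

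UMIs were summed per class and library. Intervals are exact Poisson, exact binomial (Clopper-Pearson) and, for ratios, exact conditional binomial. Only the ratio interval was run on simulated data, for kidney T cells and ILC2s. Those data were independent Poisson counts, which the interval itself assumes, so clustering of UMIs in single cells was not covered. Shares were thinned to 1000 UMIs (seed 1), and cells with fewer were left out. Where no UMI was counted, the limit printed is that of 3 UMIs or 3 cells, and thinned shares carry their exact interval. The named genes were the 7 receptors, up to 6 genes per list and comparison past 1.5-fold, and the 3 most like genes per receptor with at least 200 UMIs. Members and lists were chosen with earlier results of these data known. numpy 2.4.6, scipy 1.17.1 and scanpy 1.11.5 were used.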

Additional observations from a re-analysis of the deposited data

Results flagged for a closer look

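Cxcr3 was higher in ILC2s and lower in type 17 T cells of the library labelled PD-1 knockout than in wild-type kidney, with log2 ratios of 3.06 and -0.74. The opposite directions under the same contrast drew attention to it. The difference between the 2 classes was not tested. The ILC2 values rest on 3 and 44 UMIs and lie within the interval of B cells, and the type 17 T values on 157 and 39 UMIs.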

How the results depend on the processing

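The count of 10 receptor and class pairs past 1.5-fold in the kidney was 9 to 12 under stricter panels, no CD3 UMI in innate cells, classes from clusters, other cell filters, a mean over cells and other UMI minimums, and 4 at 2-fold. Of the 10 pairs 6 were in T cells, which stricter panels and the CD3 limit for innate cells could not change. These 2 settings left 20 and 19 measured pairs of 22. The weightings of T subclasses are not part of this count. In the T cell subclasses the 11 became 8 at 2-fold and 10 to 12 otherwise. In intestinal ILC3s it was 0 under every alternative run. In intestinal ILC1s, compared after the data were seen, it was 1 (Cxcr4) and became 0 at 2-fold, and classes from clusters left too few of these cells for a value. Ccr8 in T cells reversed, to 0.0033 with subclasses at equal weight and 0.1126 at the wild-type mix. These weightings change the mix of cells and also leave out Foxp3 T cells and T cells of no subclass. No other ratio past 1.5-fold changed direction. Cxcr3 in ILC2s was 1.33 with classes from clusters, and Ccr2 in type 17 T cells 0.0005 without the 5% of cells with most UMIs. Ccr2 also left its interval in ILC1s without any CD3 UMI, at -0.85, and in ILC2s without that 5%, at -0.83. In T cells it was -1.49 as a mean over cells. The cause was not tested. Leaving out shared barcodes, or cells under 1000 UMIs, moved none of 51 ratios outside its interval. Thinning to 2000 UMIs raised all 11 shares examined, as deeper thinning leaves more UMIs per cell. The subclass comparisons, the weights and the limit of 5% were chosen after seeing the data. The alternative without Scrublet calls was not run, because the caller marked too few cells. No paired analysis was possible because each group is 1 library, and for the same reason no library could be left out. Depth limits Ccr10 in all classes, Ccr4 in innate cells and all receptors of the kidney ILC3 gate other than Ccr2 and Cxcr4.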

Other observations

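Within a class, cells with and without a UMI of a receptor also differed in other genes. These genes were chosen after their values were seen, from those with the highest ratios in 1 library, and are set beside their values in the other. Not all of the highest are shown, and some did not keep their direction in the other library. In CD8 T cells with a Cx3cr1 UMI the granzyme gene Gzma stood at 538 against 122 CPM without in the library labelled PD-1 knockout and at 1811 against 243 CPM in wild-type kidney, where 15 cells had a Cx3cr1 UMI. In CD8 T cells with Ccr2, Tmem176a stood at 232 against 102 CPM in wild-type kidney and 144 against 63.5 CPM in the other library. The granzyme gene Gzmb stood at 688 against 285 CPM and 243 against 227 CPM in the same order. Gzmk stood at 317 against 149 CPM and, with the order turned round, 178 against 226 CPM. In ILC2s with Ccr8, Cxcl10 stood at 144 against 84.7 CPM in wild-type kidney and 118 against 51.0 CPM in the other library. Stmn1, the highest ratio of that split, stood at 160 against 77.1 CPM and at 155 against 185 CPM. In CD4 T cells with Ccr4, Top2a, a gene of dividing cells, stood at 434 against 119 CPM and 280.0 against 135 CPM.

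In ILC1s the 6 genes with the highest ratios by Ccr2 in wild-type kidney were H2-Ab1, Gzma, H2-Aa, H2-Eb1, Cd74 and Zbtb20. Gzma, the gene by which NK cells were checked, stood at 278 against 78.5 CPM in cells with and without a Ccr2 UMI and at 76.9 against 52.0 CPM in the other library. Zbtb20 stood at 179 against 91.0 CPM and 99.4 against 99.4 CPM. H2-Aa stood at 720.0 against 245 CPM in wild-type cells with and without a Ccr2 UMI and at 1165 against 847 CPM in the knockout-labelled library, and Cd74 at 865 against 399 CPM and 1840.2 against 1322 CPM. The 6 genes of the myeloid panel summed to 12.3 against 6.28 CPM and 14.4 against 9.18 CPM in the same cells. As these genes also defined the myeloid class, the sums cannot decide whether myeloid transcripts were mixed in. What such transcripts added to this split was not tested. Cells with a Ccr2 UMI were deeper, with medians of 1896 against 1776 and 2429.5 against 2173 UMIs.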
